A study of Mus musculus with 6 samples.

Results

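The 43 genes described here encode heterogeneous nuclear ribonucleoproteins (hnRNPs), paraspeckle proteins and regulators of alternative splicing. They were chosen by name from a fixed list and not by a cut on their values, but with earlier results of these data known. All 43 were found among the 21269 genes of the count table. HL-1 cells, a line derived from mouse atrial cardiomyocytes, were transfected with 50 nM of a locked nucleic acid (LNA) gapmer against Malat1 in 3 libraries, or with a control LNA gapmer in 3 libraries. Gapmers are short, chemically modified DNA strands by which RNase H is led to cleave a matching transcript. Cells were seeded 24 h before transfection and collected 48 h after it, so both groups carried a gapmer and differed in its target. The cells come from 1 line, and nothing in the sample records says that the libraries came from separate cultures, so p-values measure the spread between these libraries, which may be technical.

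hnRNPs coat newly made transcripts in the nucleus and influence which exons are kept, and most of them bind RNA through RNA recognition motifs or KH domains. Sfpq, Nono and Pspc1 form the family of paraspeckle proteins that assemble on the long non-coding RNA Neat1. Malat1 is an abundant RNA of nuclear speckles, bodies rich in splicing factors, and muscle cells add their own regulators, of which the Mbnl, Celf, Rbfox and Rbm proteins set much of the splicing programme of the heart.

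The targeted RNA was examined first. Malat1 (chr19:5795690-5802672, mm10) reached normalized counts of 5051, 5197 and 4369 in the control libraries and of 2833, 2792 and 2732 after LNA Malat1. The groups did not overlap, the level with LNA Malat1 was 57.2% of that in LNA Control, and Malat1 fell by 0.80 on the log2 scale (SE 0.07, limma adjusted p = 7.5e-06). A normalized count is a read count divided by a factor of its library, here rounded to whole numbers by the authors. Library sums of these values lay between 4831007 and 4921406 for LNA Control and between 4758777 and 4762957 for LNA Malat1. Per kb of exon, Malat1 stood 9th of 15210 genes at 548.3 over all libraries, where the 99th percentile was 319.2 and the highest value 683.9. Whether duplicate reads were removed is not given in the sources used here, and any effect of that on the fold changes of the most abundant genes was not tested. LNA Malat1 replicates 1 and 3 differed by less than the sampling noise over all genes compared (chi-square 0.949 per gene) and by slightly more than it over the 1754 most abundant ones (1.096), and were counted as 1 sample in each mean ± SD. The SE and adjusted p of limma, unless stated otherwise, treat them as separate libraries. LNA Control replicates 1 and 3 were the least alike, with a chi-square of 4.178 per gene, where noise alone gives about 1.

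Among the markers of atrial cardiomyocytes, the sum over the 10 analysed was 5309 to 5589 in LNA Control and 5030 to 5201 in LNA Malat1. The largest part came from Ryr2 (2237 to 2706), while the defining marker Myh6 was between 0 and 7. Myl4 (30 to 49) and Myl7 (18 to 32) were low as well. The markers did not move together: of 9 tested, Tnnt2 passed as higher (11.1%, against 14.3% of all genes tested). Gata4 and Tbx5 passed as lower (22.2%, against 14.0%). Nppa and Sln were not analysed here. The 4 fibroblast markers analysed summed to 2928 to 3362 in LNA Control and 2685 to 2757 in LNA Malat1, almost all of it from Col1a1 and Postn, with Col1a2 between 0 and 1. The 4 smooth muscle markers summed to 1512 to 1678 and 1553 to 1701, the 3 endothelial markers to 22 to 31 and 36 to 37, and the 2 immune markers to 14 to 25 and 36 to 47. The part of these levels in the results was not tested, and fewer cells of a type cannot be told apart from less RNA per cell.

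All 43 genes passed the filter for low values, a mean of at least 5, with means between 151.7 and 4359.2. Between LNA Malat1 and LNA Control, 4 of them rose, Mbnl3, Matr3, Tra2a and Ptbp2, and 6 fell, Rbfox2, Mbnl2, Hnrnpm, Pspc1, Hnrnpl and Hnrnph1, at a limma adjusted p that did not exceed 0.05. The share that rose was 9.3%, against 14.3% of the 15650 genes tested, and the share that fell was 14.0%, against 14.0%. Of the 8911 genes whose mean reached 100, as that of every member did, 11% rose and 21.6% fell. No member reached a 1.5-fold change. Together with the adjusted p, 10.9% of all genes met that criterion, and of those 8911 genes 152 rose and 276 fell past it. An unadjusted p of 0.05 in limma was passed by 19 members, against 6230 of the 15650 genes tested and 3929 of those 8911 genes. The widest change among the members was 1.38-fold, and the 95% interval lay within a 1.5-fold change in 41 of 43 members and within a 1.2-fold change in 23. The values of LNA Malat1 and LNA Control did not overlap in 19 members (44.2%), against 41.3% of all genes tested and 46.5% of those 8911 genes. The median log2 fold change of the members was -0.026, against 0.018 over all genes and -0.043 over those 8911 genes. Without LNA Control replicate 3, 7 members rose and 13 fell, and without LNA Malat1 replicate 1, 2 or 3, 1 rose in each case. Under quantile normalization, 6 rose and 5 fell. For these alternative fits and those below, the share of all genes past the threshold was not counted, so their counts have no background. In either direction 23.3% of the members passed in the main fit, against 28.3% of all genes and 32.6% of those 8911 genes. The description below is therefore of single genes and not of the list.

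**Figure D1:**
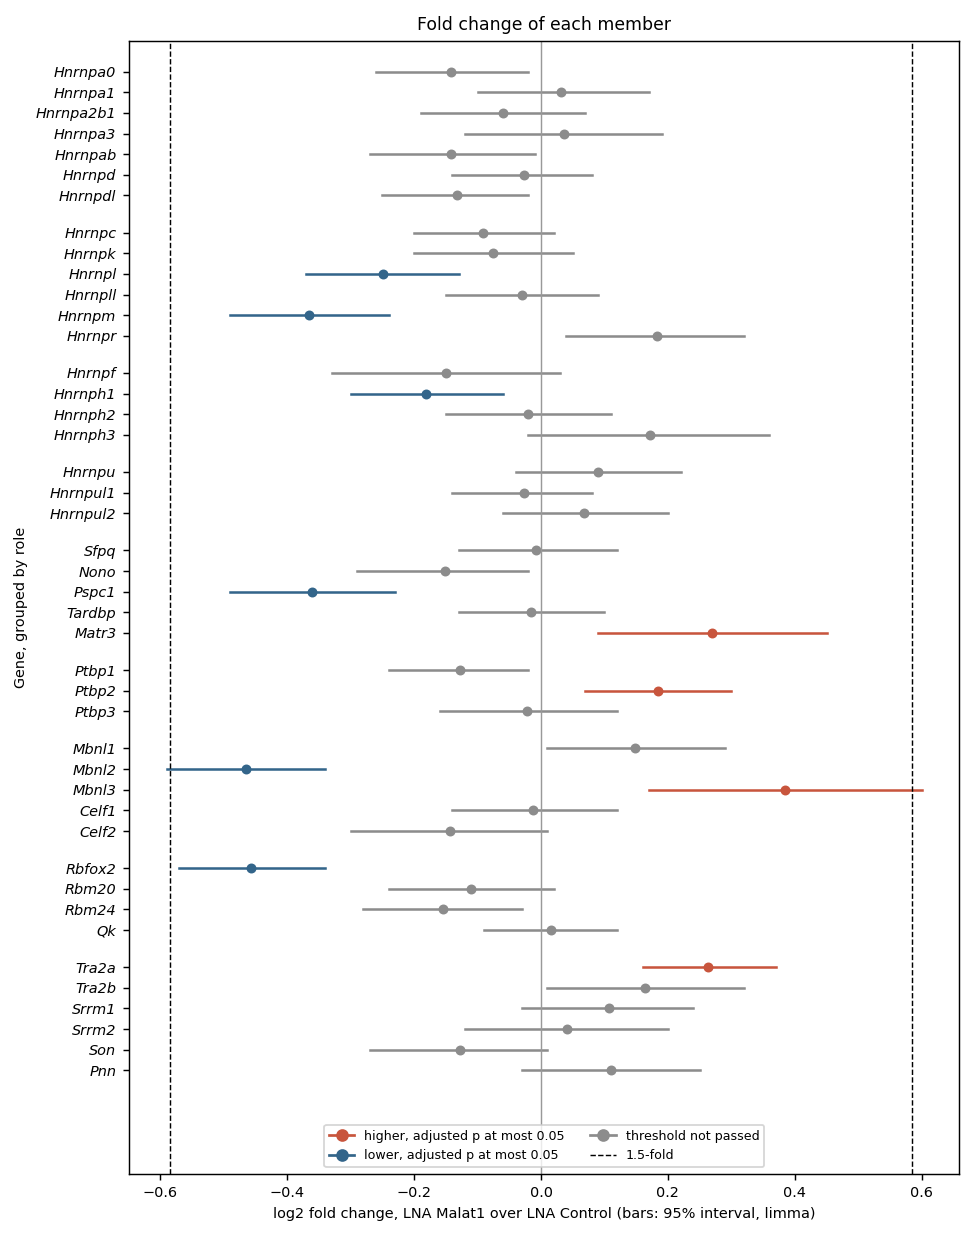
The log2 fold change of LNA Malat1 over LNA Control (x axis) is plotted for each of the 43 genes (y axis, grouped by role), with points for the estimate, bars for the limma 95% interval, red for rises and blue for falls past an adjusted p of 0.05, and dashed lines at 1.5-fold. Every point lies inside the dashed lines, between -0.46 for Mbnl2 and Rbfox2 and 0.38 for Mbnl3.

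Muscleblind-like (Mbnl) proteins drive the switch of many exons from fetal to adult forms in heart and skeletal muscle, and Mbnl2 and Mbnl3 changed in opposite directions. Mbnl2 (chr14:120275669-120431697) reached normalized counts of 1425, 1506 and 1646 under LNA Control and of 1074, 1117 and 1120 under LNA Malat1. The LNA Malat1 values were all under the control values, and Mbnl2 fell by 0.46 on the log2 scale (SE 0.06, limma adjusted p = 0.00011), from 1525.7 ± 111.8 (SD, n = 3) to 1107.0 ± 14.1 (SD, n = 2). Mbnl3 (chrX:51117269-51206532), the paralog most linked to immature muscle cells, was measured at 1076, 1391 and 1534 with the control gapmer and at 1692, 1757 and 1718 with LNA Malat1. LNA Control replicate 1 was well below the other two, yet all LNA Malat1 values exceeded all control values. Mbnl3 rose by 0.38 on the log2 scale (SE 0.10, limma adjusted p = 0.012), with an adjusted p of 0.052 to 0.06 without any one of the LNA Malat1 libraries and 0.058 with replicates 1 and 3 as 1 sample. Mbnl1, the most studied Mbnl gene, had 1462, 1673 and 1727 against 1754, 1833 and 1786, again with a low LNA Control replicate 1. Its groups did not overlap, but it did not pass the test (log2 fold change 0.15, 95% interval 0.01 to 0.29, limma adjusted p = 0.11).

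The ratio of Mbnl3 to Mbnl2, a pairing chosen after the values were seen, was 0.755, 0.924 and 0.932 in the control libraries and 1.575, 1.573 and 1.534 after LNA Malat1. The ratio was higher in every LNA Malat1 library than in any control library, by 0.85 on the log2 scale. This separation follows from the separate groups of each gene and adds no support of its own. Divided by exonic length, it was 1.036, 1.267 and 1.278 against 2.161, 2.158 and 2.104. Per kb, Mbnl3 was thus above Mbnl2, but barely so in LNA Control replicate 1. Exonic length here covers all annotated exons, whether or not these cells use them, so small differences per kb are uncertain. For such a ratio, 3 against 3 libraries cannot give an exact permutation p below 0.1. How often the ratios of other gene pairs separate was not counted, for this ratio or for those below.

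The promoters of these paralogs are shown because the pair changed in opposite directions. Both are the 250 bases before the start of the gene in RefSeq (GRCm38.p6), read 5′ to 3′ on the strand of the gene. The first lies at chr14:120275419-120275668 on the plus strand and the second at chrX:51205991-51206240 on the minus strand, the latter within the span that the count table gives for Mbnl3. Capitals mark the CCAAT box (letters CCAAT, or on the other strand ATTGG) and the GC box (letters GGGCGG, or on the other strand CCGCCC).
Mbnl2: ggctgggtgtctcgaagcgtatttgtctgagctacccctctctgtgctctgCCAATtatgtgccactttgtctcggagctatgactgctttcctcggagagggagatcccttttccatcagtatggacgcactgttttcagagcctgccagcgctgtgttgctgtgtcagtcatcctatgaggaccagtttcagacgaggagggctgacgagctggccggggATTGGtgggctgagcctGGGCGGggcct
Mbnl3: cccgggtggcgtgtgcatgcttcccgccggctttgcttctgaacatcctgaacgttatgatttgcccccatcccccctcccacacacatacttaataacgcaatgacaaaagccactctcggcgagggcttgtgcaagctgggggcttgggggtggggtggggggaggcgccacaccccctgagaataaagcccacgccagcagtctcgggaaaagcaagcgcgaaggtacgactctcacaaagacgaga

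The Mbnl2 window held 2 CCAAT boxes and 1 GC box. The Mbnl3 window held neither, nor any of the other strings searched on both strands, which were the TATA box written as TATAAA, the core of ETS factor sites written as CCGGAA and the cAMP response element written as TGACGTCA. Promoter windows were at hand for 37 of the 43 members. A CCAAT box was in 22 of them (59.5%), against 36.9% of the 10584 promoters of genes tested, a difference that was not tested. The GC box was in 22 as well (59.5%, against 58.8%), the ETS core in 7 (18.9%, against 22.6%), the TATA box in 3 (8.11%, against 6.5%) and the cAMP response element in 1, that of Tra2a (2.7%, against 2.72%). The median GC content was 60.8% in the members and 60.0% in all. A match is a description of the letters and not of binding.

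Celf proteins often oppose Mbnl proteins on the same exons. Celf1 had a log2 fold change of -0.01 (95% interval -0.14 to 0.12). Celf2, whose gene spans 969.9 kb, had 797, 826 and 934 under LNA Control and 702, 786 and 826 under LNA Malat1, which overlap (log2 fold change -0.14, limma adjusted p = 0.16).

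Among the regulators of muscle splicing, Rbfox2 fell, and Rbm20, Rbm24 and Qk did not pass the test. Rbfox2 (chr15:77078990-77307004), an RNA-binding protein that controls a large set of exons in heart and brain, had 1149, 1126 and 1039 with the control gapmer and 803, 810 and 799 with LNA Malat1. The lowest control value stood well above the highest LNA Malat1 value, and the means were 1104.7 ± 58.0 (SD, n = 3) and 805.5 ± 6.4 (SD, n = 2). Rbfox2 fell by 0.46 on the log2 scale (SE 0.05, limma adjusted p = 5.5e-05), the smallest adjusted p of the 43 genes. It was 0.0014 in limma with LNA Malat1 replicates 1 and 3 as 1 sample. Rbm20, the regulator of titin splicing, had 1739, 1633 and 1488 against 1514, 1470 and 1511 (log2 fold change -0.11, 95% interval -0.24 to 0.02, limma adjusted p = 0.20). Rbm24, which promotes muscle-specific exons, had 369, 359 and 382 against 328, 329 and 340. Its groups did not overlap, but the adjusted p missed the threshold (log2 fold change -0.15, limma adjusted p = 0.056). Qk, a STAR-domain protein active in muscle and glia, had 1677, 1699 and 1691 against 1725, 1714 and 1684, which overlapped (log2 fold change 0.02, 95% interval -0.09 to 0.12).

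**Figure D2:**
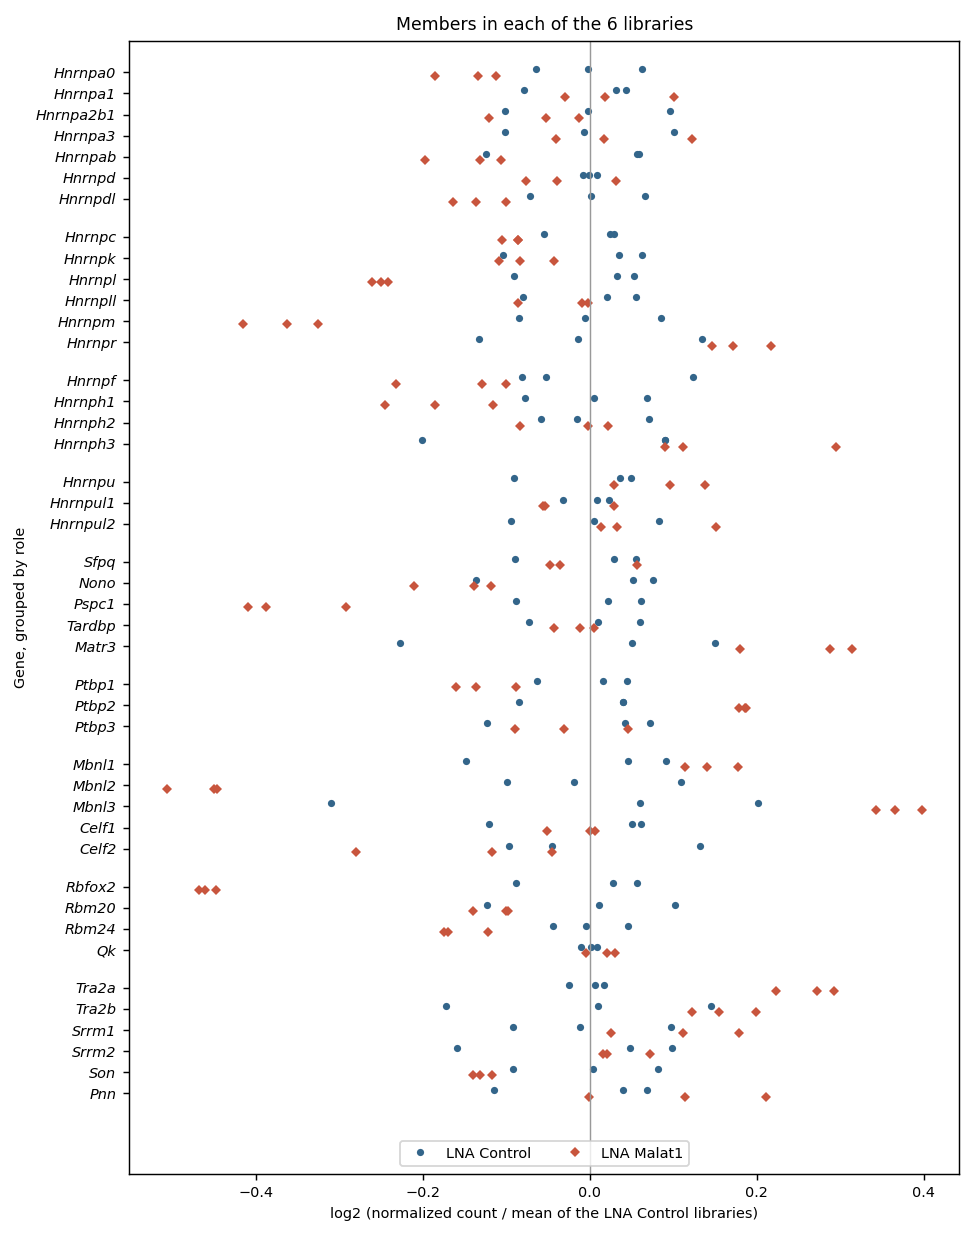
The normalized count in each library divided by the mean of LNA Control, on the log2 scale (x axis), is plotted for each of the 43 genes (y axis, grouped by role), with blue circles for LNA Control and red diamonds for LNA Malat1. The 3 LNA Malat1 points of most genes sit close together, and for Rbfox2, Mbnl2, Hnrnpm and Pspc1 all of them are left of the control points.

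Of the 20 hnRNP genes, 3 passed the threshold and were lower (15%, against 14.0% of all genes tested), and none passed as higher (against 14.3%). The largest fall was that of Hnrnpm (chr17:33646233-33686860), a splicing repressor and enhancer, with 917, 1031 and 968 in the control libraries and 756, 776 and 729 after LNA Malat1. The groups were well apart, at 972.0 ± 57.1 (SD, n = 3) and 759.2 ± 23.7 (SD, n = 2), and Hnrnpm fell by 0.37 in log2 units (limma adjusted p = 0.00047, or 0.0063 with LNA Malat1 replicates 1 and 3 as 1 sample). Hnrnpm shares 14.7% of its exonic bases with Marchf2 on the same strand, where reads on both genes were left out, and Marchf2 had 272, 269 and 279 against 241, 253 and 258 (log2 fold change -0.12, limma adjusted p = 0.15).

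Hnrnpl (chr7:28808541-28822266), which binds CA repeats, was measured at 1316, 1335 and 1208 under LNA Control and at 1082, 1074 and 1088 under LNA Malat1. All 3 LNA Malat1 values were below the control values, and Hnrnpl fell by 0.25 on the log2 scale (SE 0.05, limma adjusted p = 0.0044). Its paralog Hnrnpll, known from exon choice in lymphocytes, had 774, 830 and 850 against 813, 771 and 817, which overlapped (log2 fold change -0.03, 95% interval -0.15 to 0.09). The ratio of Hnrnpl to Hnrnpll, also chosen after the values were seen, was 1.7, 1.608 and 1.421 with the control gapmer and 1.331, 1.393 and 1.332 with LNA Malat1, lower in each LNA Malat1 library than in any control library.

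Hnrnph1 (chr11:50376990-50386528), a protein that binds runs of G, had 1180, 1233 and 1115 in the control libraries and 1085, 1034 and 992 after LNA Malat1. The groups were separate by a narrow margin, the fall was 0.18 on the log2 scale (limma adjusted p = 0.031), and the adjusted p was 0.13 without LNA Control replicate 2 and 0.052, 0.098 and 0.15 without LNA Malat1 replicates 1, 2 and 3. The related Hnrnpf had 174, 151 and 154 against 146, 149 and 136 (log2 fold change -0.15, limma adjusted p = 0.21). Its exons overlap with those of 4933440N22Rik (13.5%) and Gm43863 (13%) on the opposite strand, and the strand setting of the counting is not given. Neither of these genes passed the test (limma adjusted p = 0.052 and 0.45). Hnrnph2 (298, 326 and 307 against 310, 315 and 293) and Hnrnph3 (215, 263 and 263 against 303, 263 and 267) did not pass the test either, at log2 fold changes of -0.02 and 0.17.

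Hnrnpr, a close relative of Syncrip that binds RNA in nucleus and cytoplasm, had 756, 821 and 910 under LNA Control and 934, 964 and 918 under LNA Malat1, every one of the latter above the former. Its adjusted p stayed just over the threshold (log2 fold change 0.18, SE 0.07, limma adjusted p = 0.053). Hnrnpk, the KH-domain hnRNP, had a log2 fold change of -0.08 (95% interval -0.20 to 0.05, limma adjusted p = 0.34).

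The study also silenced Hnrnpu and Hnrnpc in other experiments, so their own levels after Malat1 knockdown were examined. For hnRNP U the paper also reports Malat1 in immunoprecipitates of the protein and a rescue by its overexpression. The RNA levels given here do not measure that interaction. Hnrnpu (chr1:178321108-178337797), a protein that ties RNA to the nuclear matrix, had 2334, 2573 and 2549 with the control gapmer and 2736, 2657 and 2536 with LNA Malat1. The groups overlapped, and the log2 fold change of 0.09 had a 95% interval of -0.04 to 0.22 (limma adjusted p = 0.30). Hnrnpc (chr14:52073377-52104028), which binds runs of U and keeps cryptic exons out, had 641, 643 and 607 against 586, 594 and 594. Its values did not overlap, but the difference was small (log2 fold change -0.09, 95% interval -0.20 to 0.02, limma adjusted p = 0.20). The U-like genes did not pass the test either, with Hnrnpul1 at a log2 fold change of -0.03 (95% interval -0.14 to 0.08) and Hnrnpul2 at 0.07 (95% interval -0.06 to 0.20).

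Of the A/B and D type hnRNPs, which package nascent RNA and often act as splicing silencers, none of 7 passed the threshold, against 28.3% of all genes tested. Hnrnpa2b1, the highest of them by normalized count but not per kb, had 1820, 1948 and 1699 in the control libraries and 1806, 1758 and 1676 after LNA Malat1 (log2 fold change -0.06). Hnrnpa1 and Hnrnpa3 had log2 fold changes of 0.03 and 0.04. Both have processed copies in the genome, and reads aligning to several regions were left out, so their levels are uncertain. Hnrnpd, an AU-rich element binding protein, had -0.03 on the same scale. Hnrnpa0 (-0.14, limma adjusted p = 0.067), Hnrnpdl (-0.13, limma adjusted p = 0.08) and Hnrnpab (-0.14, limma adjusted p = 0.097) were lower by a similar amount and missed the threshold. The exons of Hnrnpab overlap by 29.1% with those of Phykpl on the opposite strand, and Phykpl rose from 200, 171 and 186 to 329, 286 and 341 (log2 fold change 0.77, limma adjusted p = 2.6e-05). The strand setting of the counting is not given in the sources used here, so the value of Hnrnpab is uncertain.

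**Figure D3:**
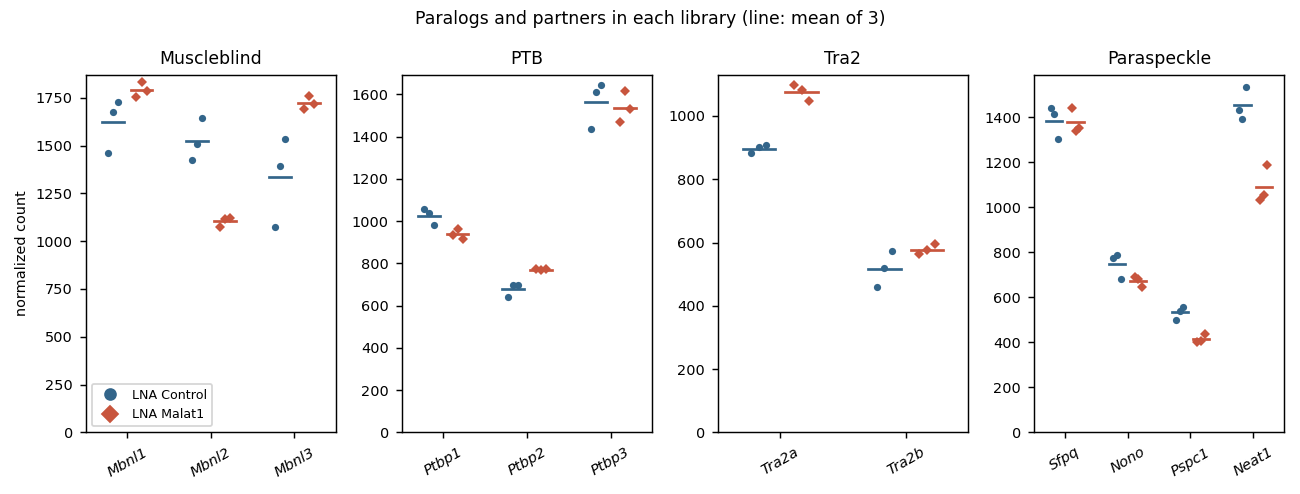
Normalized counts in each library (y axis, starting at 0) are plotted for the Mbnl, PTB, Tra2 and paraspeckle genes (x axis), with blue circles for LNA Control, red diamonds for LNA Malat1 and lines for the mean of 3. On these counts, which are not divided by length, Mbnl2 is lower and Mbnl3 higher in LNA Malat1, and Pspc1 and Neat1 fall while the groups of Sfpq overlap.

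Within the paraspeckle protein family, Pspc1 (chr14:56720710-56778316) had 502, 542 and 557 under LNA Control and 402, 408 and 436 under LNA Malat1. The groups did not overlap, at 533.7 ± 28.4 (SD, n = 3) and 413.5 ± 7.8 (SD, n = 2), and Pspc1 fell by 0.36 in log2 units (limma adjusted p = 0.00073, or 0.0047 with LNA Malat1 replicates 1 and 3 as 1 sample). Sfpq, which is needed for paraspeckles to form, had 1441, 1415 and 1303 against 1442, 1341 and 1353, a log2 fold change of -0.01 with a 95% interval of -0.13 to 0.12. Nono, its usual partner, had 777, 790 and 682 against 691, 681 and 648, which overlapped the control range (log2 fold change -0.15, limma adjusted p = 0.088). The ratio of Pspc1 to Sfpq was 0.348, 0.383 and 0.427 with the control gapmer and 0.279, 0.304 and 0.322 with LNA Malat1 and did not overlap between the groups, while that of Pspc1 to Nono did. The scaffold RNA of paraspeckles, Neat1 (chr19:5824708-5845478), whose gene neighbours Malat1, had 1435, 1393 and 1534 against 1032, 1056 and 1188. All LNA Malat1 values of Neat1 were below the control values (log2 fold change -0.41, SE 0.06, limma adjusted p = 0.00045).

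Tardbp, the TDP-43 protein that represses cryptic exons, had 1413, 1364 and 1288 in the control libraries and 1360, 1344 and 1316 after LNA Malat1, inside the control range (log2 fold change -0.02, 95% interval -0.13 to 0.10). It shares 23.3% of its exonic bases with Masp2 on the opposite strand, which had 4, 7 and 9 against 14, 18 and 12. Matr3, a nuclear matrix protein that binds RNA, had 607, 736 and 788 against 867, 883 and 805. Its highest control value was close to its lowest LNA Malat1 value, and it rose by 0.27 on the log2 scale (SE 0.08, limma adjusted p = 0.028). The Matr3 call was not kept without LNA Control replicate 2 (limma adjusted p = 0.061) or without LNA Malat1 replicate 1, 2 or 3 (0.11, 0.12 and 0.053). Matr3 shares 17.3% of its exonic bases with a gene named Snhg4 in the table on the same strand, which had between 4 and 8 normalized counts.

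Polypyrimidine tract binding (PTB) proteins repress exons and replace each other during differentiation, as Ptbp1 gives way to Ptbp2 in neurons. Ptbp1 had 1058, 1037 and 982 under LNA Control and 933, 965 and 918 under LNA Malat1. Its values did not overlap and missed the threshold (log2 fold change -0.13, limma adjusted p = 0.084). On the opposite strand its exons overlap with those of E130317F20Rik (6.2%), Plppr3 (5.3%) and Gm17134 (9.2%). E130317F20Rik rose (log2 fold change 0.41, limma adjusted p = 0.026), Plppr3 did not pass (-0.34, limma adjusted p = 0.26) and Gm17134 had between 0 and 2. With the strand setting not given, the value of Ptbp1 is uncertain. Ptbp2 (chr3:119718742-119784466) had 640, 698 and 698 against 773, 768 and 772. Ptbp2 was higher in each LNA Malat1 library and rose by 0.18 in log2 units (limma adjusted p = 0.020), with an adjusted p of 0.063 to 0.078 without any one of the LNA Malat1 libraries. Ptbp3 overlapped between the groups, at 1435, 1610 and 1644 against 1469, 1614 and 1530 (log2 fold change -0.02, 95% interval -0.16 to 0.12). The ratio of Ptbp2 to Ptbp1 was 0.605, 0.673 and 0.711 with the control gapmer and 0.829, 0.796 and 0.841 with LNA Malat1, higher in every LNA Malat1 library. That too follows from the separate groups of each gene and adds no support of its own.

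The last group holds proteins rich in arginine and serine (RS) that join SR proteins on exons, among them Son and Srrm2, which form the core of nuclear speckles. Tra2a (chr6:49243924-49264033), an activator of exons with GA-rich enhancers, had 882, 901 and 908 in the control libraries and 1099, 1083 and 1047 after LNA Malat1. The control values lay close together, and Tra2a rose by 0.26 on the log2 scale (SE 0.05, limma adjusted p = 0.0017). Its paralog Tra2b had 459, 521 and 572 against 563, 576 and 594, which overlapped (log2 fold change 0.16, limma adjusted p = 0.11). The ratio of Tra2a to Tra2b overlapped too, at 1.922, 1.729 and 1.587 with the control gapmer and 1.952, 1.88 and 1.763 with LNA Malat1. The speckle core gene Srrm2 had 4395, 4244 and 3676 against 4317, 4152 and 4164 (log2 fold change 0.04, limma adjusted p = 0.72). Son, the most abundant member by normalized count, had 4567, 4823 and 4275 against 4158, 4199 and 4133. Its groups were separate, with a log2 fold change of -0.13 (95% interval -0.27 to 0.01, limma adjusted p = 0.17). Srrm1, a splicing coactivator, and Pnn, a speckle protein tied to the exon junction complex, each had 0.11 as their log2 fold change (limma adjusted p = 0.22 and 0.24).

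**Figure D4:**
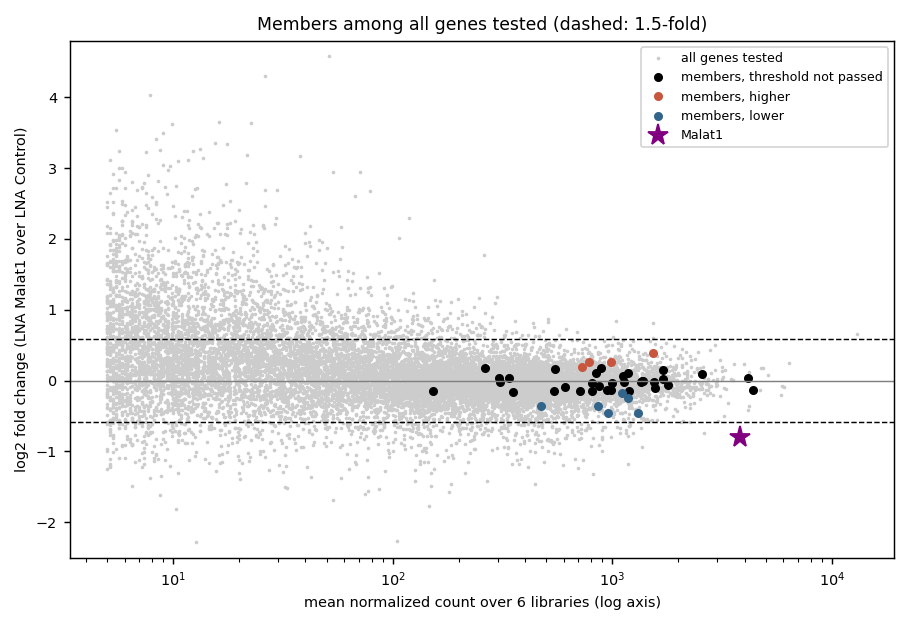
The log2 fold change (y axis) is plotted against the mean normalized count (x axis, log scale) for all 15650 genes tested in grey and for the members in red (higher), blue (lower) or black (threshold not passed), with a star for Malat1 and dashed lines at 1.5-fold. The members lie at means of 151.7 to 4359.2 and within the band of the other genes of their level.

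Per kb of annotated exon, a scale for a rough comparison of genes, the members had between 32.9 (Celf2) and 448.1 (Hnrnpab) normalized counts in LNA Control. The median was 138.3. Srrm2 (319.7), Son (305.6), Sfpq (292.3) and Hnrnpa2b1 (276.8) followed Hnrnpab. The members thus stood high among genes, at a median percentile of 88.3. Mbnl3 (152.5) and Mbnl2 (127.2) were closer to each other per kb than Ptbp1 (216.4) and Ptbp2 (74.0).

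The control libraries varied more than the LNA Malat1 libraries in these genes. The range of a member over its 3 libraries had a median of 0.17 on the log2 scale in LNA Control and of 0.08 in LNA Malat1, and was larger in LNA Control for 36 of 43 members. Over 10490 genes with a mean of at least 50 these medians were 0.17 and 0.13, and the range was larger in LNA Control for 6715. Across the 43 members, the difference of LNA Control replicate 3 from replicate 1 correlated with the difference of the LNA Malat1 mean from LNA Control replicate 2 at r = 0.42, against 0.14 over those 10490 genes. Genes are not independent, and this is a description. Some members that were lowest in LNA Control replicate 1, such as Mbnl3, Matr3, Hnrnpr and Tra2b, had higher means in LNA Malat1. Others that were lowest in that library, such as Mbnl2, Hnrnpm, Pspc1 and Celf2, had lower means in LNA Malat1. Without that library, Mbnl3 rose by 0.24 rather than 0.38 on the log2 scale (limma adjusted p = 0.0036), and Matr3 by 0.16 rather than 0.27 (limma adjusted p = 0.047). In the same fit the log2 fold change of Mbnl2 was -0.51 rather than -0.46, and that of Pspc1 -0.4 rather than -0.36. Rbfox2, Mbnl2, Hnrnpm, Pspc1, Hnrnpl and Tra2a passed the threshold in all 6 fits that left out 1 library. Across members, the log2 fold change had a Spearman rho of 0.02 with the span of the gene and of 0.29 with its exonic length, again as a description over 43 genes.

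Other genes of the splicing pathway were counted from lists by role. Of 49 genes of the core spliceosome, the machinery that removes introns, none rose (against 14.3% of all genes tested) and 6 fell (12.2%, against 14.0%). These 6 were Snrnp200, Eftud2, Snrnp40, Cdc5l, Bcas2 and Plrg1, and the furthest from 0 was Bcas2, a subunit of the Prp19 complex, with 328, 319 and 288 under LNA Control and 268, 256 and 241 under LNA Malat1 (log2 fold change -0.29, limma adjusted p = 0.0086). Without LNA Malat1 replicate 3 none of the list passed as lower, without LNA Malat1 replicate 1 or 2 there were 3, without LNA Control replicate 2 there were 2, and without LNA Control replicate 3 there were 12. Under quantile normalization 2 rose and 3 fell. The list had a median log2 fold change of -0.034, close to that of the 43 members. Of 5 exon junction complex genes, 1 fell (20%, against 14.0% of all genes tested) and none rose (against 14.3%). It was Casc3, with 528, 510 and 491 against 330, 309 and 292 (log2 fold change -0.72, limma adjusted p = 5.1e-06). Its fall went beyond 1.5-fold, as did that of 457 of the 15650 genes tested at this threshold.

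Among 41 other splicing regulators tested, 5 rose (12.2%, against 14.3% of all genes) and 5 fell (12.2%, against 14.0%), with 8 higher without LNA Control replicate 3 and 3 lower without LNA Control replicate 2 or LNA Malat1 replicate 3. Under quantile normalization 9 rose and 4 fell. Tia1, which promotes exons with weak splice sites and forms stress granules, had 420, 434 and 470 with the control gapmer and 206, 237 and 251 with LNA Malat1 (log2 fold change -0.93, limma adjusted p = 3.9e-06). Its paralog Tial1 fell by 0.44 in log2 units (limma adjusted p = 0.00025). Celf5, of the same family as Celf1 and Celf2, rose from 29, 38 and 38 to 115, 77 and 93 (log2 fold change 1.41, limma adjusted p = 7.6e-05). Esrp2, an epithelial splicing regulator, rose from 55, 35 and 40 to 80, 78 and 83 (log2 fold change 0.90, limma adjusted p = 0.0015). These low counts contrast with those of the 43 members, all at 136 or more in every library.

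Of 11 kinases and import factors of splicing proteins, 2 rose and 2 fell (18.2% each, against 14.3% and 14.0% of all genes). Clk2 and Prpf4b rose by 0.25 and 0.24 on the log2 scale. Srpk1 and Dyrk1a fell by 0.20 and 0.45. The list had 1 fall without LNA Malat1 replicate 1 or 3, 1 rise without LNA Malat1 replicate 3, 4 rises without LNA Control replicate 3, and 5 rises and 2 falls under quantile normalization. Of 6 further paraspeckle components, Neat1 and Dazap1 fell (33.3%, against 14.0% of all genes) and none rose (against 14.3%). Without LNA Malat1 replicate 2 or 3 as under quantile normalization, 1 gene of the list passed as lower.

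**Figure D5:**
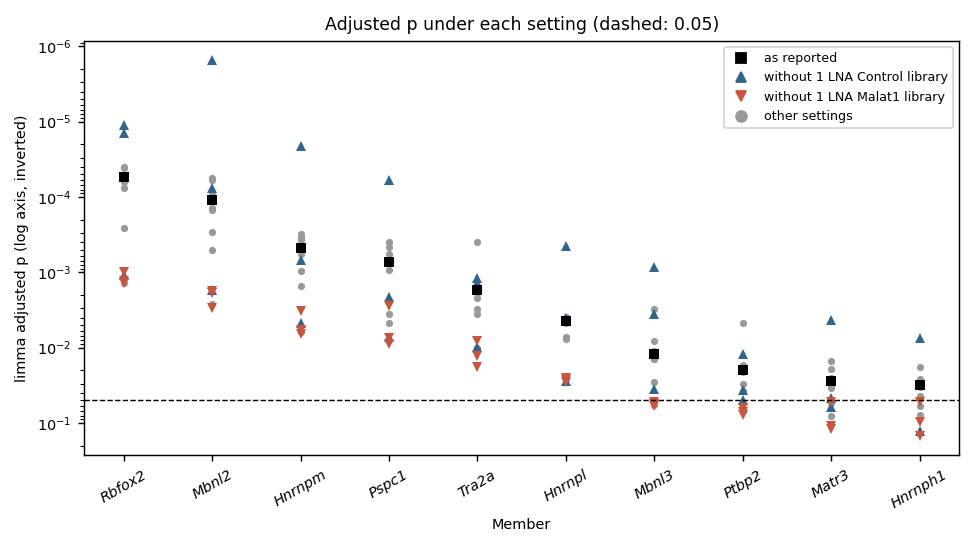
The limma adjusted p (y axis, log scale, inverted, with a dashed line at 0.05) is plotted for each of the 10 members past the threshold (x axis), with a black square for the value as reported, triangles for fits without 1 library and grey points for other ways of processing. Rbfox2, Mbnl2, Hnrnpm, Pspc1, Hnrnpl and Tra2a stay above the line in all of them, while Matr3, Mbnl3, Ptbp2 and Hnrnph1 cross it.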

How the data were processed

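Total RNA of HL-1 cells was sequenced in 6 libraries, 3 of LNA Control and 3 of LNA Malat1, grouped by the sample labels. According to the paper's methods and the submitters' processing notes, reads from a stranded total RNA kit were trimmed with Trimmomatic 0.39, mapped to mm10 by STAR 2.7.7a, using Ensembl release 101, and counted per gene with featureCounts 1.6.5. Reads lying partly on exons counted, and reads on several genes or regions were left out. The authors then normalized the counts with DESeq2 1.30.0. The deposited values are a score, namely normalized counts rounded to whole numbers, so no count model was run.

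Genes with a mean of at least 5 (15650 of 21269) were fitted together in limma 3.58.1 (R 4.3.3), using lmFit and eBayes with a trend on log2 of the value plus a pseudocount of 1, two-sided, with Benjamini-Hochberg adjustment over all genes tested. Fold changes are on this scale. The threshold was an adjusted p of 0.05, with a 1.5-fold change as a second criterion. The procedure was tested on simulated data with changes of 2-fold or more, called at 1.5-fold, and with equal noise in all libraries. That test does not cover changes as small as those of the members. Gaps left by rounding in each column gave back its normalization factor and thus between 4511607 and 5594033 reads on genes, on which replicates were compared by chi-square. For LNA Malat1 replicates 1 and 3 this was 0.949 per gene over all genes compared and 1.096 over the abundant ones, and for replicates 1 and 2 it was 1.012 and 1.665, so over all genes the criterion does not single out the pair. Reads are not independent molecules, and these comparisons cover counting error only.

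The members and lists were chosen with earlier results of these data known. The text names all members, gives values by library for those past the threshold, for Hnrnpu, Hnrnpc and paralogs, and from each other list the counts and up to 4 genes past both criteria. Genes named beyond that, and all ratios between paralogs, were chosen after their values were seen. Positions are those of the count table, counted from 1, exonic lengths are from GENCODE M21, and promoters are from RefSeq on GRCm38.p6. The alternatives were the replicate number as a block, other pseudocounts (0.1 and 5), median-of-ratios and quantile scaling, a filter at a mean of 50 or none, a 2-fold criterion, LNA Malat1 replicates 1 and 3 as 1 sample, and leaving out each library.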

Additional observations from a re-analysis of the deposited data

How the results depend on the processing

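Rbfox2, Mbnl2, Hnrnpm, Pspc1, Hnrnpl and Tra2a kept their direction and passed the threshold in all 14 alternatives, and Malat1 did too. Matr3, Mbnl3, Ptbp2 and Hnrnph1 did not pass when LNA Malat1 replicates 1 and 3 were averaged (limma adjusted p = 0.08, 0.058, 0.069 and 0.078), where 1 member rose against 4. Hnrnph1 did not pass under quantile normalization (0.06), nor Matr3 without a filter (0.055). Leaving out 1 library at a time gave between 1 and 7 members that rose and between 5 and 13 that fell, with the most in both directions without LNA Control replicate 3. The shares of all genes past the threshold in these fits were not counted. Under quantile normalization the median log2 fold change of the members was 0.022, against -0.026. No member passed both criteria under any alternative. Of 602 member values, 561 kept their side of the threshold, 20 were no longer past it, 21 were newly past it and 0 changed direction while past it.

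The replicate numbers are shared between the groups in the labels, and the main fit did not take them as pairs. The deviations of same-numbered libraries from their group means correlated at 0.086, 0.18 and 0.083 over 10490 genes. On these deviations every control library correlated best with its own number. Whether the numbers mark pairs was not tested. With the replicate number as a block, 5 members rose and 9 fell, again without a count over all genes.

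With 3 libraries per group, and LNA Malat1 replicate 1 no further than sampling noise from replicates 2 and 3 over all genes compared, small changes are at the limit of the design: the median SE of a member was 0.06 on the log2 scale. Rounded values carry no more than the depth of about 4511607 to 5594033 reads per library.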
